A study of Mus musculus with 2 samples.

Results

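The miR-23, miR-27 and miR-24 genes lie in a pair of paralogous clusters in the mouse, Mir23b, Mir27b and Mir24-1 on chromosome 13, and Mir23a, Mir27a and Mir24-2 on chromosome 8. The 6 genes were chosen by name as the members of these clusters, among the 1973 annotated miRNA genes of the deposited tables. Of these, 5 were matched by Ensembl identifier to a counted gene, and Mir24-1 is not analysed here under its own identifier. Small RNA of under 30 nucleotides was sequenced from whole fetal liver of strain B6NCrl at embryonic day 15.5, in 1 group of 2 libraries, with no treatment and no genetic alteration in the labels. Replicate 1 was a pool of livers from 78 embryos and replicate 2 of 62, each of both sexes, so the spread between them measures pools and library making rather than single animals.

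Each cluster is thought to be cut from a long primary transcript by Drosha, after which Dicer releases a duplex from each hairpin and 1 strand guides Argonaute to messenger RNAs through the seed, bases 2 to 8 of the mature miRNA. Paralogs with the same seed are predicted to share most targets, and so the clusters are usually treated as a common regulatory unit under separate promoters. The family is known for its activity in endothelial cells and in blood lineages, miR-27 for its targets in lipid metabolism and fat cell differentiation, and the chromosome 13 cluster for targeting Smad messenger RNAs in mouse fetal liver stem cells.

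The 3p strands of the family are shown first, because they decide which of the paralogous loci a read can be given to. Sequences are from RefSeq (GRCm38.p6), 5′ to 3′, with the seed in capitals. The RefSeq set used here lists no 3p strand for Mir23b, so the stretch of its precursor that aligns with miR-23a-3p is given. Its ends are those of miR-23a-3p, and it is not among the mature strands counted below.
Mir23b precursor stretch, chromosome 13: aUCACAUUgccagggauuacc
miR-23a-3p, chromosome 8: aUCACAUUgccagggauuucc
miR-27b-3p, chromosome 13: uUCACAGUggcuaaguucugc
miR-27a-3p, chromosome 8: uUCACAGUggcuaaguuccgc
miR-24-3p, chromosomes 13 and 8: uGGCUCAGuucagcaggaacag

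Within the miR-23 pair and within the miR-27 pair the seed was the same and 1 base of 21 differed. Counted from the 5′ end, with the base of the chromosome 8 sequence first, these were U19A in miR-23 and C19U in miR-27. The first 18 bases were therefore the same at both loci. The 22 bases of miR-24-3p were the same at both loci, so no read of that strand can be placed at Mir24-1 or Mir24-2 from its sequence.

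The 5p strands differed more, and they are shown because they separate the miR-24 loci.
miR-24-1-5p, chromosome 13: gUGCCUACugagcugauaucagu
miR-24-2-5p, chromosome 8: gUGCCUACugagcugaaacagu
The miR-24 5p strands shared a seed and their first 16 bases. The miR-27 5p strands had different seeds and parted at base 3, and the miR-23 5p strands, also with different seeds, at base 4. Over whole precursors, 59 bases aligned as identical between Mir23b (74 bases) and Mir23a (75 bases), 58 between Mir27b (73) and Mir27a (87), and 60 between Mir24-1 (68) and Mir24-2 (107).

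How early a strand parts from all other loci varied between members. The shortest 5′ stretch found in no other of 1005 RefSeq mouse hairpins was 19 bases for miR-27b-3p, 19 for miR-23a-3p and 19 for miR-27a-3p. It was 17 bases for miR-24-1-5p and 17 for miR-24-2-5p. The 5p strands of the other members parted early, at 11 bases for miR-23b-5p, 11 for miR-23a-5p and 9 for miR-27a-5p. For miR-27b-5p it was 8 bases or fewer, since 8 was the shortest length tried. Among 1738 mature strands in that table, 16 (0.921%) became unique only from base 19 or later, 123 (7.08%) lay whole in another hairpin, and 1569 (90.3%) were unique within their first 16 bases. The comparison covers annotated hairpins only, not the whole genome. In the deposited tables a read that maps to several places is given to no gene, and such reads made up 29.3% of 14666947 reads in replicate 1 and 31.1% of 8454226 reads in replicate 2. How many of them came from these clusters was not tested.

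Both clusters have the order miR-23, miR-27, miR-24 on the plus strand (GRCm38, annotation release M21). The chromosome 13 cluster spans 792 bases (63300484 to 63301275) and the chromosome 8 cluster 404 bases (84208518 to 84208921). On chromosome 13 the gaps between precursors are 154 and 423 bases. On chromosome 8 they are 79 and 56 bases. Mir23b lies in an intron of 2010111I01Rik, the gene of aminopeptidase O that RefSeq names Aopep, while Mir27b and Mir24-1 lie in exons of some of its transcripts, in parts annotated as untranslated. All 3 also lie within an intron of the Fanconi anaemia gene Fancc on the other strand. Mir23a and Mir27a lie in no other annotated gene, and Mir24-2 overlaps the first bases of the long noncoding RNA Gm26532.

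**Figure D1:**
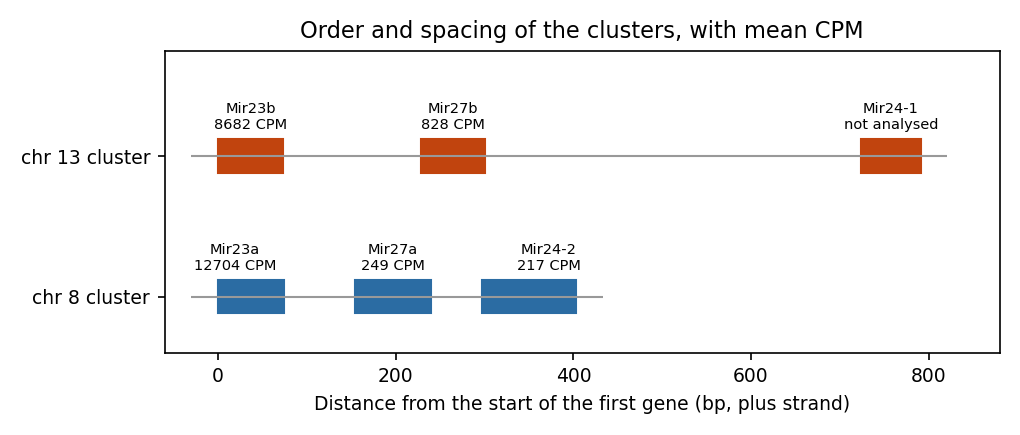
Precursors of the chromosome 13 cluster (above) and the chromosome 8 cluster (below), drawn to scale as distance in bp from the start of the first gene, with the mean CPM of 2 libraries over each. The miR-23 gene stands first in both clusters. Among the measured members it is the highest in each cluster, at 8682 CPM on chromosome 13 and 12704 CPM on chromosome 8. The miR-24 gene on chromosome 13 was not measured. Reads of the miR-24 strand shared by both clusters could not be placed, so the level of miR-24 was not compared.

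The 2 libraries held 5529166 (replicate 1) and 3169882 (replicate 2) counts on the miRNA genes' own strand. Levels are counts per 1000000 of these (CPM), per precursor gene, so that both strands of a hairpin are summed. A miRNA is read whole, so levels were not divided by precursor length. The limit that 0 counts leaves is 3 counts, which is 0.543 CPM at the depth of replicate 1 and 0.946 CPM at that of replicate 2. Hepatocyte markers summed to 195625 and 180888 CPM and erythroid markers to 27150 and 18579 CPM in replicates 1 and 2, in an organ that also makes blood at this stage. The endothelial marker Mir126a stood at 44199 ± 867 CPM (SD, n = 2). Skeletal muscle markers summed to 1439 and 2653 CPM.

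The miR-23 genes carried most of the counts placed at the measured members. The 5 measured members together took 2.27% ± 0.130 of sense counts (SD, n = 2), which was 23603 and 21757 CPM in replicates 1 and 2. The miR-23 genes made up 94.3% of the members' counts in both libraries, the miR-27 genes 4.84% and 4.65%. In whole liver, fewer cells of a type and less RNA per cell cannot be told apart.

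Mir23b, the first gene of the chromosome 13 cluster, had 50276 counts in replicate 1 and 26217 in replicate 2. These were 9093 CPM (exact Clopper-Pearson 95% interval 9014 to 9172) and 8271 CPM (8171 to 8371), a mean of 8682 ± 581 CPM at rank 30 of 1973. Mir23a, its chromosome 8 paralog, had 72723 and 38848 counts. These were 13153 CPM (13058 to 13248) and 12255 CPM (12135 to 12377), a mean of 12704 ± 634 CPM at rank 24. Mir23b was lower than Mir23a in each library, and the ranges of the 2 genes did not overlap.

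Mir27b had 4872 counts in replicate 1 and 2459 in replicate 2, which were 881 CPM (857 to 906) and 776 CPM (745 to 807). Its mean of 828 ± 74.5 CPM put it at rank 94. Mir27a had 1449 and 747 counts, which were 262 CPM (249 to 276) and 236 CPM (219 to 253). Its mean was 249 ± 18.7 CPM, at rank 145. The order within this pair was the opposite of that within the miR-23 pair, with the chromosome 13 gene the higher in both libraries.

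Mir24-2, the last gene of the chromosome 8 cluster, had 1182 counts in replicate 1 and 696 in replicate 2. These were 214 CPM (202 to 226) and 220 CPM (204 to 237), a mean of 217 ± 4.09 CPM at rank 152. Since miR-24-3p is the same at both loci, this level covers only reads that could be placed at Mir24-2, and the level of miR-24 in the liver was not measured by it. Ordered by level, the members ran Mir23a, Mir23b, Mir27b, Mir27a and Mir24-2. The first 4 were separated by more than the spread between libraries. Mir27a and Mir24-2 were not told apart in replicate 2, where their 95% intervals overlapped, but did not overlap in replicate 1.

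**Figure D2:**
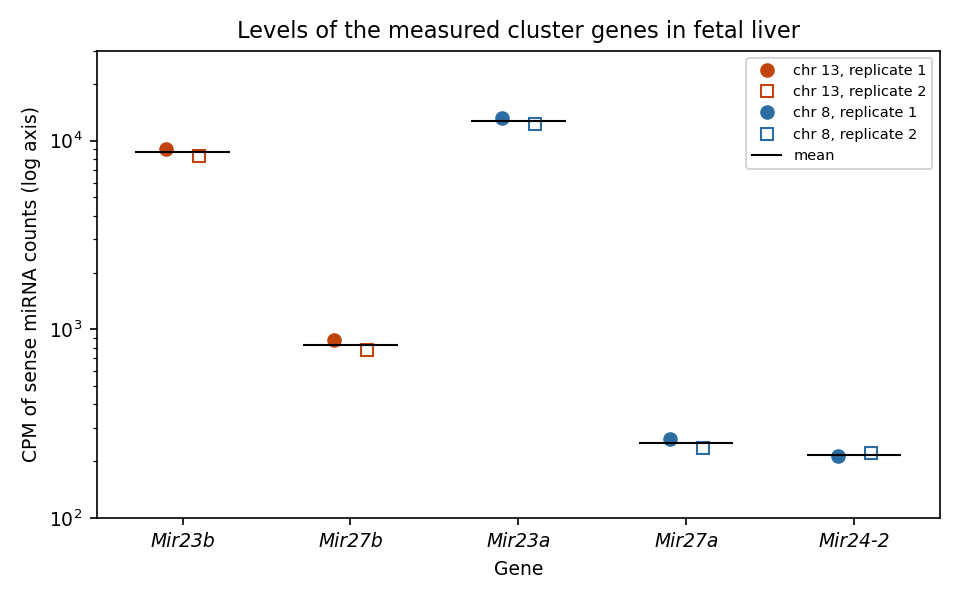
Level of each measured member in CPM of sense miRNA counts (log axis), with the chromosome 13 genes left of the chromosome 8 genes, replicate 1 as filled circles, replicate 2 as open squares and the mean as a line. The miR-23 genes sit between 8271 and 13153 CPM, and all other members at or below 881 CPM.

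Reads on the strand opposite to the members were 0 at all 5 measured genes in both libraries. At Mir24-2 this strand holds Mir3074-2, an annotated miRNA gene that is not analysed here. The locus of Mir24-1 lies whole within Mir3074-1, annotated on the minus strand in release M21. Mir3074-1 had 977 counts on its own strand in replicate 1 and 665 in replicate 2, a level of 193 ± 23.4 CPM. Its version number differs between the counted table and release M21, so its strand and ends at counting are uncertain. The only RefSeq mature strand of Mir3074-1, miR-3074-5p, is the same at Mir3074-2, so its reads cannot be placed from their sequence. The level above is therefore not that of miR-3074-5p. Which of the Mir3074-1 counts belong to Mir24-1 could not be settled, and none was given to a member. The version numbers of Mir23b and Mir27b also differ, and their ends at counting may differ from the coordinates above.

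The genes next to the members in the ranking show what levels these are in this tissue. Mir23b stood between Mir154 (8817 ± 162 CPM) and Mir382 (8528 ± 24.6 CPM), both of the imprinted Dlk1-Dio3 domain. Mir27b stood between Mir29a (851 ± 30.4 CPM) and Mir16-2 (821 ± 2.35 CPM). Mir23a stood between Mir431 (13224 ± 942 CPM) and Mir369 (11168 ± 581 CPM), also of the Dlk1-Dio3 domain. Mir27a stood between Mir32 and Mir493, and Mir24-2 between Mir181b-2 and Mir145a. Of these neighbours, Mir369 was the only gene whose values in the 2 libraries did not overlap or interleave with those of the member beside it.

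**Figure D3:**
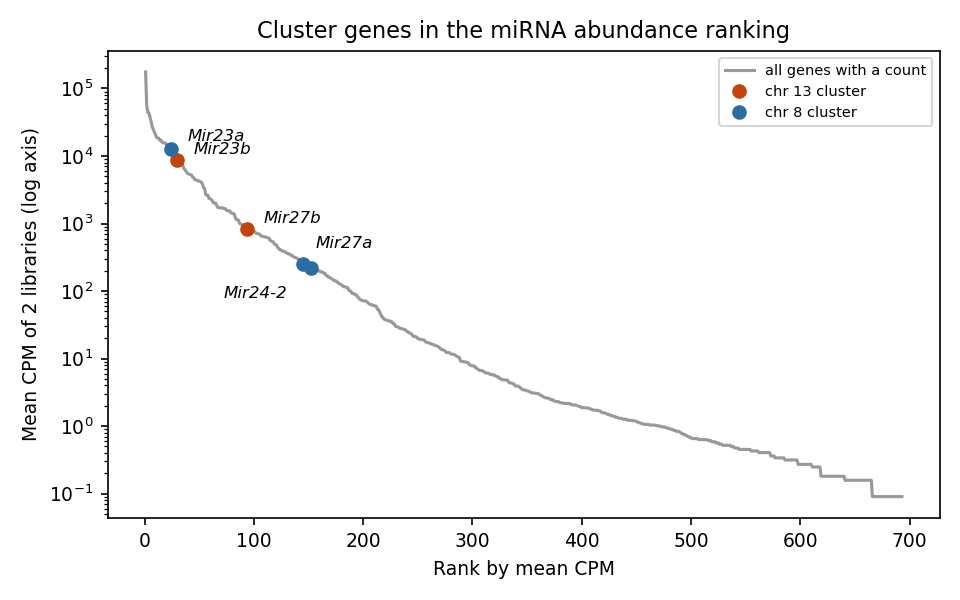
Mean CPM of 2 libraries (log axis) against rank for all miRNA genes with a count, with the members of the chromosome 13 and chromosome 8 clusters marked. Mir23b and Mir23a lie at ranks 30 and 24, Mir27b at rank 94, and Mir27a and Mir24-2 at ranks 145 and 152.

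The balance between the paralogous loci was compared within each library, where library scaling cancels. Reads of the miR-23 and miR-27 3p strands that do not reach base 19 are the same at both loci, so they cannot be placed from their sequence. The 5p strands part earlier, and both strands of a hairpin are summed. The shares are thus those of placed reads, and the effect of placement on them was not tested. For miR-23, chromosome 13 held 40.9% of the pair's counts in replicate 1, with an exact 95% interval of 40.6 to 41.2%. In replicate 2 it held 40.3% (39.9 to 40.7). Mir23b stood at 0.683 ± 0.0116 times Mir23a (SD, n = 2). For miR-27, chromosome 13 held 77.1% in replicate 1 (76.0 to 78.1) and 76.7% in replicate 2 (75.2 to 78.2). Mir27b stood at 3.33 ± 0.0498 times Mir27a. The miR-23 and miR-27 shares lay on opposite sides of equal counts in both libraries, and their intervals were far apart, while each share differed little between the pools.

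Summed over measured members, the chromosome 13 cluster had 9510 ± 656 CPM, against 13170 ± 649 CPM for the chromosome 8 cluster. The chromosome 13 share was 41.9% ± 0.480. That sum has 2 measured members on chromosome 13 and 3 on chromosome 8. Without the miR-24 genes the share was 42.3%. It follows the miR-23 pair, since that pair holds most of the counts.

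**Figure D4:**
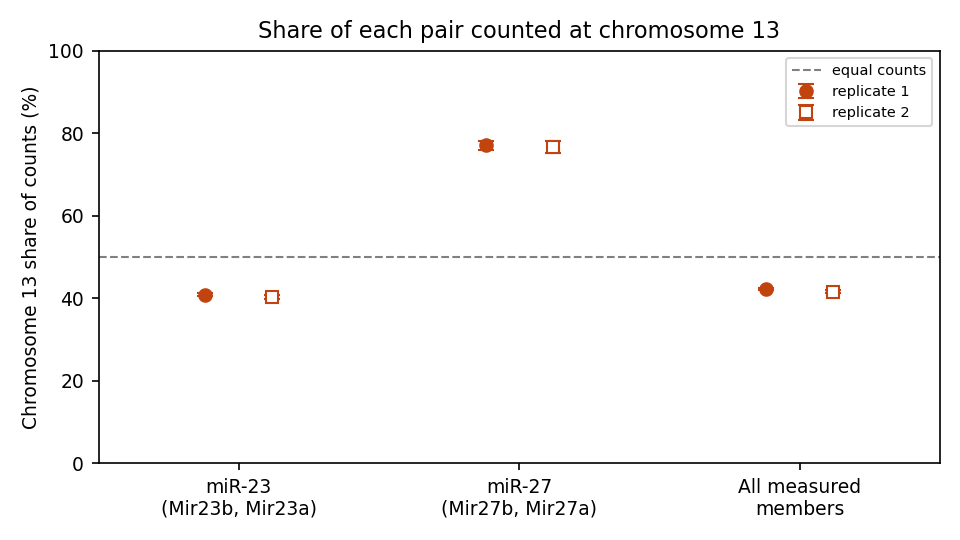
Chromosome 13 share of counts (percent) within the miR-23 pair, the miR-27 pair and all measured members, with replicate 1 as circles, replicate 2 as squares and exact 95% intervals of counting error. The miR-23 share lies near 40.6% and the miR-27 share near 76.9%, on either side of the dashed line of equal counts.

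The miR-23 and miR-27 precursors of each cluster had far from equal counts. Mir23b had 10.3 times the counts of Mir27b in replicate 1 and 10.7 times in replicate 2. Mir23a had 50.2 times the counts of Mir27a in replicate 1 and 52.0 times in replicate 2. The drop from the miR-23 to the miR-27 gene was thus shallower on chromosome 13 than on chromosome 8 in both libraries. The counts placed at Mir27a and Mir24-2 were close, at a ratio of 1.23 in replicate 1 and 1.07 in replicate 2. Reads of miR-24-3p cannot be placed and are missing from the Mir24-2 count, so the precursors themselves were not compared. Unequal counts at neighbours were common in these libraries. Over 113 pairs of adjacent detected miRNA genes (at least 10 counts in both libraries, same strand, within 10 kb), the median absolute difference was 3.03 on the log2 CPM scale. Mir23b and Mir27b differed by 3.39, at place 54 of these 113 pairs, and Mir23a and Mir27a by 5.67, at place 22. Mir27a and Mir24-2 differed by 0.20, at place 110. Some of the pairs, that of Mir24-2 included, hold a gene with a mature strand shared between loci. Reads of such a strand that map to several places are missing from its count. Reads of the miR-23 and miR-27 3p strands that do not reach base 19 also cannot be placed from their sequence. The ratios and differences therefore cover read placement as well as abundance.

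Mir24-2 was set beside the other genes whose mature sequence is shared by several loci. Of 97 such genes in the RefSeq table, 87 were counted, and 41 of these (47.1%) had at least 10 counts in both libraries, against 34.6% of the 916 counted genes with a RefSeq mature sequence. Their median was 2.17 CPM, against 0.587 CPM over the 916 genes. Mir24-2 is among the 53 of them that have 1 shared strand of 2, of which 37 (69.8%) had at least 10 counts in both libraries, with a median of 15.2 CPM. The highest were Mir16-1 (4885 ± 265 CPM), Mir92-1 (4271 ± 230 CPM) and Mirlet7f-2 (2021 ± 20.5 CPM), and Mir24-2 was at place 9 of the 87. These 3 also have 1 shared strand and 1 of their own. Such genes keep the counts of reads that can be placed, so their order is uncertain.

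The seeds of the family were looked up among all mature mouse miRNAs of the RefSeq table. No other gene there has a strand with the miR-27 seed or the miR-23 seed. The miR-24 seed is also found in Mir6413, Mir6410, Mir6369 and Mir5124b, all of which had 0 counts in both libraries. The miR-27 genes, which share a seed, summed to 1077 ± 93.2 CPM, and the miR-23 genes to 21386 ± 1216 CPM.

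Finally the pools were compared gene by gene, with an exact binomial test (two-sided, conditional on the summed count, library sizes scaled by TMM), which covers counting error and compares 2 libraries, not conditions. Of 456 genes tested, 176 (38.6%) differed with a Benjamini-Hochberg adjusted p under 0.05, and of the 187 genes that averaged 100 CPM or more, 114 (61.0%) did. Of the 5 measured members 4 differed, all lower in replicate 2, a direction in which 19.7% of all tested genes were called. All 5 averaged more than 100 CPM, where calls were more frequent, and the share in that direction was not taken among the 187 genes. The log2 ratios, replicate 2 over replicate 1, were -0.16 for Mir23b (adjusted p = 9.02e-49 by the exact binomial test) and -0.13 for Mir23a (adjusted p = 2.48e-44, same exact test). They were -0.21 for Mir27b (adjusted p = 2.27e-08, same exact test) and -0.18 for Mir27a (adjusted p = 0.0179, same exact test). Mir24-2, at 0.01, did not pass (adjusted p = 0.935, same exact test). The members' median was -0.16, against -0.02 over all genes tested. The SD of the log2 ratio over the 187 genes was 0.203, and Mir27b was the 1 member farther from 0 than that. Marker levels also differed between the pools. Mir126a and the summed hepatocyte markers were lower in CPM in replicate 2, and the summed skeletal muscle markers were higher. Most of the hepatocyte sum was Mir122, and most of the skeletal muscle sum was Mir206. Leukocyte markers summed to 21119 and 19680 CPM in replicates 1 and 2. Mesenchymal and vascular smooth muscle markers summed to 21246 and 20442 CPM, so both sums were also lower in replicate 2. The 3 highest mesenchymal markers did not move together. Mir143, most of that sum, had 16474 CPM in replicate 1 and 14790 CPM in replicate 2. Mir140, with 3711 and 4510 CPM, and Mir214, with 798 and 933 CPM, were higher in replicate 2. Of the 3 erythroid markers, Mir451a had 18658 CPM in replicate 1 and 8843 CPM in replicate 2, which lowered the erythroid sum. The other erythroid markers were higher in replicate 2, Mir144 with 7777 and 8918 CPM and Mir486 with 715 and 818 CPM in replicates 1 and 2. The part of these cell types in the members' values was not tested.

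**Figure D5:**
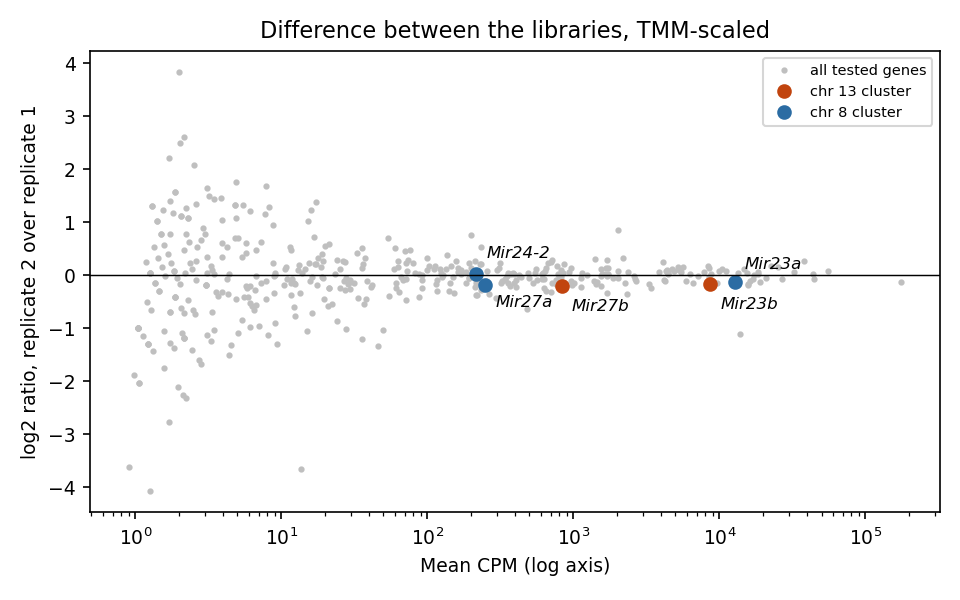
Log2 ratio of replicate 2 over replicate 1 on TMM-scaled sizes against mean CPM (log axis), for 456 tested genes in grey and the measured members in colour. The miR-23 and miR-27 genes lie between -0.21 and -0.13 and Mir24-2 at 0.01, inside the cloud of genes of like abundance.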

How the data were processed

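The deposited files hold raw read counts per annotated miRNA gene, which the authors made on mm10 with annotation M4, per the text deposited beside them. The aligner and the counting program were not given in the sources used here. Counts on the gene's own strand were used. Reads given to no gene (unmapped, several places, outside genes) stayed out of library sizes. They were 23.9%, 29.3% and 5.40% of reads in replicate 1 and 21.4%, 31.1% and 6.23% in replicate 2. Of 1973 identifiers 1894 matched release M21 by their stable part, 79 of them under another version. TMM factors came from edgeR 4.0.16, alternative size factors from DESeq2 1.42.0, in R 4.3.3, and the exact tests and intervals from SciPy 1.17.1. Genes with at least 10 counts summed were tested, and log2 ratios had 0.5 added to each count. The test was tested on simulated data. Reads copied by PCR can stem from the same molecule, and intervals and limits therefore cover counting error alone. The tables were not 1 library deposited again (chi-square per degree of freedom 68.6, 455 degrees of freedom). The members and lists were chosen with earlier results of these data known. Named genes were the members, miRNA genes within 50 kb, the gene next above and below each member by mean CPM, and the 3 highest genes of each list. Genes with the miR-24 seed or a shifted miR-27 seed were named outside this rule, after their values were seen. With 1 group, no condition was compared. Alternatives covered strand, scaling, count minimum, the miR-24 genes and each replicate left out.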

Additional observations from a re-analysis of the deposited data

Results flagged for a closer look

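Opposite-strand counts at Mir3074-1, whose annotated span holds the whole of Mir24-1 on the other strand, were 116 in replicate 1 and 56 in replicate 2, beside 977 and 665 counts on its own strand. They were singled out as a signal in a column outside the sense counts of the main results, above the 3 counts that a count of 0 allows. Among the alternatives, that column enters only those with unstranded counts and those that add counts of Mir3074-1. They made up 10.6% of all counts at that gene in replicate 1 and 7.77% in replicate 2. Pooled over all genes, the opposite-strand share was 8.77% and 9.12%. The pooled share is not that of a typical gene, since many genes, all 5 measured members among them, had 0 such counts. At the paralogous Mir24-2 both libraries had 0 opposite-strand counts.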

How the results depend on the processing

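The chromosome 13 share of counts stayed below equal counts for miR-23 and above it for miR-27 with either replicate left out (40.3 to 40.9% for miR-23, 76.7 to 77.1% for miR-27). For all measured members the share was 41.6 to 42.3% with a replicate left out, 42.3% without the miR-24 genes and, as alternatives chosen after seeing the data, 42.0% with the opposite-strand counts of Mir3074-1 added to chromosome 13 and 42.5% with both its strands added. The summed level of the members was 20653 CPM with unstranded counts and 27520 CPM with the most abundant gene left out of the total, against 22680 CPM, because the totals changed. It was 21757 to 23603 CPM with a replicate left out. The number of genes that differed between libraries was 155 to 187 over 5 alternatives, against 176, and the direction and call of each of the 5 measured members were the same in all 5. The call of Mir27a was close to the threshold of 0.05 when library sizes were total sense counts (adjusted p = 0.0483, exact binomial test). The comparison of the libraries cannot be made with 1 of them left out. No paired analysis was possible because there is 1 group. Mir27a, with 747 counts in replicate 2, had the widest relative interval of the miR-27 and miR-23 genes.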

Other observations

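The miRNA genes nearest to the clusters that do not overlap a member were Mir181d and Mir181c, on the opposite strand, at 29731 and 29557 bases from the chromosome 8 cluster. Mir181c, a miR-181 gene of the kind known from blood development, had 1050 and 961 CPM in replicates 1 and 2, and Mir181d had 676 and 580 CPM. Both lay above Mir27a and Mir24-2 and far below Mir23a in each library. The seed of miR-128-3p, a miRNA best known from neurons, is the miR-27 seed moved by 1 base.
miR-128-3p, chromosomes 1 and 9: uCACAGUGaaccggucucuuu
Its loci were counted at 121 and 127 CPM (Mir128-1, replicates 1 and 2) and at 32.9 and 42.0 CPM (Mir128-2), below each of the miR-27 genes in both libraries. The mature sequence is the same at both loci, so reads of it that map to several places are missing from these levels.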
